A study of Mus musculus with 8 samples.

Results

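Whole melanomas of SA mice taken 60 days after tamoxifen were compared with whole melanomas of SA mice taken at 38 days, over all genes on an Illumina mouse bead array. The 4 arrays of this comparison are those whose titles name SA tumours at day 60 (2 arrays) or day 38 (2 arrays), out of 8 arrays in the series. The 2 SA arrays at day 20 and the 2 WT arrays at day 38 entered the fit to estimate the spread, and their values are given beside those of the compared groups as a description. All groups were of the C57BL/6 strain and carried BrafCA and Tyr::CreER. BrafCA is a Braf allele that turns oncogenic once Cre recombinase has acted on it, and Tyr::CreER makes a tamoxifen-dependent Cre under the tyrosinase promoter, which is active in melanocytes. 4-hydroxytamoxifen at 25 to 50 mg/ml was painted on ear, flank and tail skin of pups on postnatal days 2 to 4. SA mice carried Ifnar1SA, an allele of the type I interferon receptor chain whose product is known to resist degradation, and WT mice carried Ifnar1+/+. The labels do not say which painted site a tumour came from or whether the 2 samples in each group are from different mice. A p-value here reflects the spread among these samples alone, which may be technical. The title of the series speaks of interferon signalling and of senescence in melanoma, and this comparison follows SA tumours between their last 2 time points.

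Melanomas of this kind arise from melanocytes, which make melanin in melanosomes under the control of the transcription factor Mitf. Oncogenic Braf drives melanocytes through the MAPK pathway and can push them into senescence, a lasting exit from the cell cycle that is marked by cell cycle inhibitors and by secretion of cytokines and proteases. Type I interferon acts through Ifnar1 and Ifnar2 on STAT factors, which switch on antiviral and antigen presentation genes. A whole tumour also holds host cells (immune, stromal and vascular cells, fat, muscle, epidermis and hair follicles), so a lower level of a cell type's genes can mean fewer such cells or less RNA in each of them, which cannot be told apart here.

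Levels are log2 intensities after background correction, in which 1 unit is a 2-fold step, and each difference is day 60 minus day 38. Between day 60 and day 38, limma called 127 of 11661 genes and unnamed probes (1.09%) at an adjusted p under 0.05. Of these, 83 rose (0.712%) and 44 fell (0.377%), and 112 carried a gene symbol. The median difference over all 11661 was 0.04. The calls lay close to the threshold. Only 14 of the 127 had an adjusted p under 0.04, and the largest was 0.0499. Xist, Haao, Azgp1 and Tmem179 are 4 of the 127 that passed the filter on low values only through the group where they were high, and their calls are no support for a change. In all 127 the day 60 arrays lay wholly above or wholly below the day 38 arrays, which was also true of 57.9% of everything tested. Among the 83 that rose, the day 60 arrays lay above all 6 other arrays in 74, against 15.1% of everything tested. Among the 44 that fell, they lay below all 6 others in 41, against 10.4%. Nearly all calls were lost on leaving out any 1 of the WT, day 38 or day 60 arrays. Without SA_day60 replicate 1, SA_day60 replicate 2 or SA_day38 replicate 1 only 1 call was left (Eif2s3y), without SA_day38 replicate 2 there were 2 calls, of which 1 was among the 127, and without either WT array 2 were left (Eif2s3y and the unnamed probe ILMN_2899599). Without SA_day20 replicate 1 or SA_day20 replicate 2 there were 930 calls, which held all 127.

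The day 60 pair correlated at 0.970 across genes and the day 38 pair at 0.971, with 574 and 591 genes over 2-fold apart. Between day 60 and day 38 arrays the correlations were 0.919 to 0.945. SA_day38 replicate 1 lay as close to the WT arrays (0.969 and 0.970) as to the other day 38 array, while SA_day38 replicate 2 stood at 0.942 and 0.937 to them. The pigment genes Dct, Tyrp1 and Pmel were above the filter on all 8 arrays, with a lowest value of 9.51 (Tyrp1 on SA_day20 replicate 1), which shows melanocyte RNA but does not tell melanoma from skin that holds melanocytes. Genes named beyond the largest differences, the sex-linked genes and the leading members of each list by p were picked after their values were seen.

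**Figure D1:**
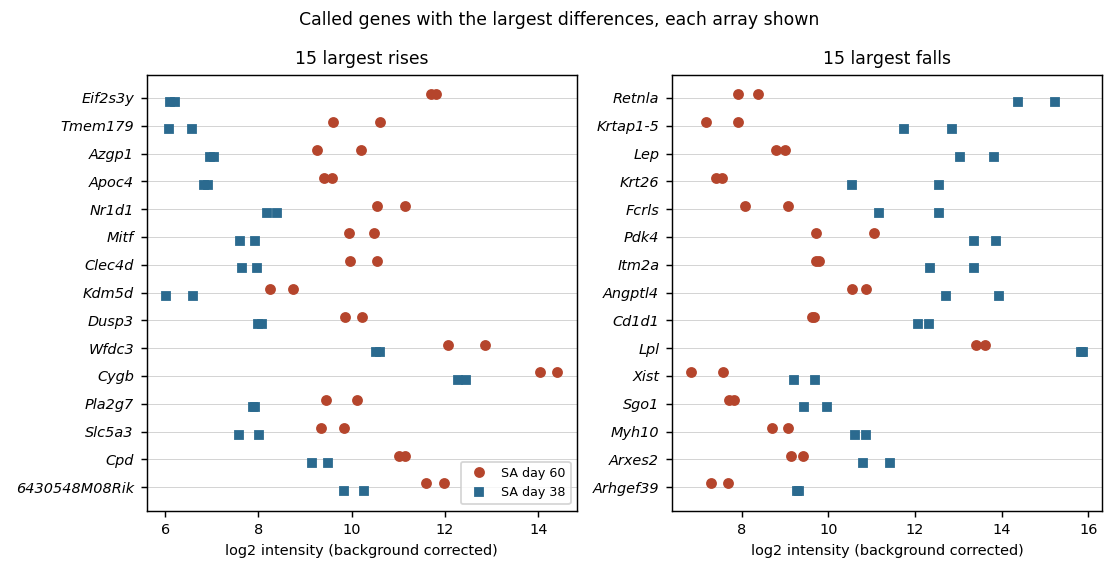
Log2 intensity (horizontal axis, background corrected) of the 15 called genes that rose most (left) and the 15 that fell most (right) between SA day 60 (circles, 2 arrays) and SA day 38 (squares, 2 arrays). Every pair of groups is separated, which the choice of genes required. Differences run from Eif2s3y at 5.60 and Retnla at −6.65 log2 units to 6430548M08Rik at 1.75 and Arhgef39 at −1.8. Tmem179, Azgp1 and Xist passed the filter only through the group where they are high.

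Sex-linked transcripts separated the 2 groups. Eif2s3y, a translation factor gene on the Y chromosome, read 11.80 and 11.69 at day 60, against 6.11 and 6.20 at day 38. Kdm5d, a Y-linked histone demethylase, read 8.25 and 8.73 at day 60, against 6.60 and 6.02 at day 38. Xist, the RNA that silences one X chromosome in females, read 6.84 and 7.56 at day 60, against 9.69 and 9.20 at day 38. The Y-linked genes were high and Xist was low in both day 60 tumours, and the reverse held in both day 38 tumours, with no overlap. The differences were 5.60 for Eif2s3y (adjusted p = 7.89e-05) and 2.17 for Kdm5d (adjusted p = 0.042). That of Xist was −2.25, given without a test since Xist passed the filter only through the day 38 arrays. The day 20 and WT arrays had the day 60 pattern, with Eif2s3y between 11.37 and 11.76. Of the other sex-linked genes measured, none was called. The X-linked gene Eif2s3x, which escapes silencing, differed by −0.78 (adjusted p = 0.0579), Kdm6a by −0.20, Kdm5c by 0.09, Ddx3x by 0.44 and the Y-linked Uty by 0.50. The day 38 SA tumours thus carried a female pattern and the day 60 tumours a male one, and sex and day cannot be told apart for any gene below. The X chromosome held 7 of the 127 calls and 344 of the 11661 measurements tested. The Y chromosome held 2 of the calls and 4 of those tested. Of the X-linked calls 2 were rises and 5 were falls (Xist, Itm2a, Arxes2, Cenpi and Kif4). A fit without both chromosomes made 114 calls.

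Pigment cell genes were higher at day 60, led by Mitf, the master regulator of melanocytes. Mitf read 9.94 and 10.48 at day 60, against 7.60 and 7.92 at day 38, and rose by 2.45 (SE 0.33, adjusted p = 0.042). Its day 60 arrays also lay above all 4 others, which read 8.14 and 9.04 at SA day 20 and 7.32 and 7.47 in WT. The 18 pigment and melanosome genes measured had positive differences, with a median of 1.8 against 0.04 over everything tested. A gene is called separated where the arrays of the 2 groups did not overlap and the group means were at least 1 log2 unit apart. This held for 13 of the 18, where 4.62% of everything tested was separated above. Limma called none of the 18, against a background of 0.712% called higher, and 5 of them had an unadjusted p under 0.05, where 26.1% of everything tested did.

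Genes of melanin synthesis and melanosome contents had differences of this size. Tyrp1, an enzyme of melanin synthesis, read 14.51 and 14.74 at day 60, against 12.06 and 12.70 at day 38 (2.24, adjusted p = 0.304). Tyr, the rate-limiting enzyme tyrosinase, read 10.10 and 10.64 at day 60, against 8.08 and 8.56 at day 38 (2.05, adjusted p = 0.267). Dct, which acts next to them in the pathway, read 15.78 and 16.09 at day 60, against 14.63 and 14.85 at day 38 (1.19, adjusted p = 0.637). All 3 enzymes were higher in both day 60 tumours without overlap. The day 20 pair, which enters the shared spread, differed widely in them, with Dct at 10.83 and 16.08. Slc45a2, a melanosome transporter, read 11.70 and 12.51 at day 60, against 9.18 and 9.76 at day 38 (2.64, adjusted p = 0.20). Syt4, a vesicle protein gene, read 14.92 and 15.18 at day 60, against 11.04 and 12.18 at day 38 (3.44, adjusted p = 0.245). Other members had smaller p-values. Gpnmb, a melanosome glycoprotein that macrophages also make, read 16.05 and 15.89 at day 60, against 13.33 and 14.33 at day 38 (2.14, adjusted p = 0.0577). Mc1r, the receptor for melanocyte-stimulating hormone, read 9.07 and 9.64 at day 60, against 7.21 and 7.82 at day 38 (1.84, adjusted p = 0.0772). Myo5a and Rab27a, which carry melanosomes along actin, differed by 0.94 (adjusted p = 0.069) and 1.12 (adjusted p = 0.077). The mean level of the 18 genes was 11.99 and 12.38 at day 60, against 10.33 and 10.83 at day 38, and their median difference ran from 1.27 to 2.19 when 1 array was left out. Markers of fat, muscle and hair follicles were lower at day 60 on the same arrays (given below), and their part in the pigment gene levels was not tested.

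Genes that specify or accompany the melanocyte lineage did not move as one. Of 14 lineage and neural crest regulators measured, Mitf was the only call, and the median was 0.34, with 0.52 without SA_day38 replicate 1. Sox5, a Sox family transcription factor gene, differed by 1.27 (adjusted p = 0.14) and Nes, which encodes the progenitor filament nestin, by 1.75 (adjusted p = 0.20). Ngfr, the nerve growth factor receptor gene of neural crest cells, differed by −0.58 (adjusted p = 0.32), and Aldh1a3, a retinaldehyde dehydrogenase gene, by 0.84 (adjusted p = 0.087). Markers of Schwann cells, which share the neural crest origin, had a median of −0.27 over 12 genes with no call. An unadjusted p under 0.05 was found for 4, where 26.1% of everything tested had one. The 2 with the smallest p lay higher, Gldn at 1.35 (adjusted p = 0.0579) and S100b at 1.22 (adjusted p = 0.142). In the list 5 differences were positive and 7 negative, and 2 genes were higher and 1 lower by at least 1 log2 unit without overlap. The Schwann cell median was −0.77 without SA_day38 replicate 2 and 0.10 without SA_day38 replicate 1.

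Promoters of 3 pigment genes are shown because these genes lay higher together and are textbook targets of Mitf, which binds the M-box. The searched core was TCATGTG on either strand, and each sequence runs 5′ to 3′ on the gene's own strand from 250 bases before an annotated start to 50 bases into the transcript, as given by RefSeq for GRCm38.p6, with matches in capitals.
Tyr, chr7:87493463-87493762, minus strand: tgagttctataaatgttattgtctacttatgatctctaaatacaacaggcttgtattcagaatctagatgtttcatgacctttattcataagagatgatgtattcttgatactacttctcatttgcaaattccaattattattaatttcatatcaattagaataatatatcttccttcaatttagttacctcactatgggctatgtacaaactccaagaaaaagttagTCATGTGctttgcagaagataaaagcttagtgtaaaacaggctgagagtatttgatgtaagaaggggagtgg
Tyrp1, chr4:80833963-80834262, plus strand: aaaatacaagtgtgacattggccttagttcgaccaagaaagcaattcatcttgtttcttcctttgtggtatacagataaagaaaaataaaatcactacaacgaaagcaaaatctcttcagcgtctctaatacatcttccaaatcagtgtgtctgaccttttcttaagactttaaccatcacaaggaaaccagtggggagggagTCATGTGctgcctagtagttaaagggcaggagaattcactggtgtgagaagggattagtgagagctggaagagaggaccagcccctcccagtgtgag
Dct, chr14:118052197-118052496, minus strand: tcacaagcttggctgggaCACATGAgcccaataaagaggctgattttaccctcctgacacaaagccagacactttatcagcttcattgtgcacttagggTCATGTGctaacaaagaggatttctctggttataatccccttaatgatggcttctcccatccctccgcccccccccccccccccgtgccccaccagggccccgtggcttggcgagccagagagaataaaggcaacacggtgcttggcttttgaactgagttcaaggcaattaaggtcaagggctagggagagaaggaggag
The match began 22 bases before the start in Tyr (position −22), at −47 in Tyrp1 and at −232 and −151 in Dct. Of the 18 pigment genes, 12 had a promoter in the RefSeq table, and 5 of these (41.7%) held the core in at least 1 promoter (Slc24a5 and Mc1r beside the 3 shown), against 4.31% of 27025 genes. A match describes the letters only.

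Genes of cell division were lower at day 60. Of 22 mitosis genes measured, all 22 had negative differences with a median of −1.50, and 21 were separated, where 4.83% of everything tested was separated below. Limma called 3 of them as falling, Cdca8, Ndc80 and Kif11, against a background of 0.377%. Cdca8, a subunit of the chromosomal passenger complex that corrects spindle attachments, read 7.81 and 7.96 at day 60, against 9.16 and 9.60 at day 38 (−1.50, SE 0.20, adjusted p = 0.042). Ndc80, the kinetochore protein that grips spindle microtubules, read 7.85 and 8.30 at day 60, against 9.54 and 9.87 at day 38 (−1.63, adjusted p = 0.0447). A second, dimmer Ndc80 probe differed by 0.25 at a mean level of 7.33, close to the filter of 7.24. Kif11, the motor that separates spindle poles, read 8.45 and 8.25 at day 60, against 9.53 and 10.18 at day 38 (−1.50, adjusted p = 0.0447). In all 3 genes both day 60 arrays lay below the other 6. Most of the rest missed the threshold by little. Top2a, the topoisomerase that untangles chromosomes, read 9.65 and 9.99 at day 60, against 11.32 and 12.17 at day 38 (−1.93, adjusted p = 0.0551). Prc1, which bundles microtubules at the cell's midzone, read 11.63 and 12.16 at day 60, against 13.53 and 13.63 at day 38 (−1.68, adjusted p = 0.0516). The exception was Foxm1, a transcription factor gene of the mitotic programme, at 9.36 and 9.04 at day 60 and 9.11 and 9.59 at day 38 (−0.14, adjusted p = 0.814), where the groups overlapped.

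The mean level of the 22 mitosis genes was 9.49 and 9.77 at day 60, against 10.84 and 11.26 at day 38, and 10.03 to 10.84 on the other 4 arrays, so both day 60 arrays were the lowest of the 8. Their median ran from −1.67 to −1.29 when 1 array was left out. Outside the list, the largest falls included Sgo1, which protects the cohesion of sister centromeres, at 7.70 and 7.83 at day 60, against 9.43 and 9.96 at day 38 (−1.93, adjusted p = 0.042). Further called genes of chromosomes and division, picked after their values were seen, also fell. They were the centromere genes Cenpi (−1.58), Cenpk (−1.58) and Itgb3bp (−1.33), the kinesin Kif4 (−1.37), the condensin subunit Ncapd2 (−1.23), the chromatin protein Hmgb2 (−1.38), the DNA crosslink repair gene Fancd2 (−1.23) and the topoisomerase Top1 (−1.08), with adjusted p-values from 0.042 to 0.0447. Cenpb, which binds centromeric DNA, went the other way at 1.08 (adjusted p = 0.0447). Further probes of Ncapd2 differed by −0.51 and −0.73, of Kif4 by −0.76 and −1.37 and of Top1 by −0.79.

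Genes of DNA replication were also lower. All 29 measured had negative differences with a median of −0.64, and 4 were separated, where 4.83% of everything tested was separated below. That median was −0.39 without SA_day38 replicate 2 and −0.90 without SA_day38 replicate 1. Ccne2, a cyclin of entry into S phase, was the only call at 7.55 and 7.86 at day 60, against 8.90 and 9.32 at day 38 (−1.41, adjusted p = 0.0447). Mcm3, a subunit of the replicative helicase, read 8.15 and 8.48 at day 60, against 9.15 and 9.31 at day 38 (−0.92, adjusted p = 0.0595). Cyclins of the D type and their partners, which act earlier in the cycle, had a median of 0.19 over 6 genes (0.44 without SA_day38 replicate 1) with no call and 2 at an unadjusted p under 0.05. Ccnd1 read 15.99 and 15.91 at day 60, against 15.08 and 14.73 at day 38 (1.05, adjusted p = 0.113), and Ccnd2 differed by 0.85 (adjusted p = 0.10). Hair follicle keratins, which mark a tissue with dividing matrix cells, were lower on the same arrays, and their part in the division genes was not tested.

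Promoters of 2 called mitosis genes are shown because promoters of such genes often hold the cell cycle homology region (CHR), an element through which their transcription is held back in resting cells. The searched core was TTTGAA on either strand, with the same window and source.
Cdca8, chr4:124936868-124937167, minus strand: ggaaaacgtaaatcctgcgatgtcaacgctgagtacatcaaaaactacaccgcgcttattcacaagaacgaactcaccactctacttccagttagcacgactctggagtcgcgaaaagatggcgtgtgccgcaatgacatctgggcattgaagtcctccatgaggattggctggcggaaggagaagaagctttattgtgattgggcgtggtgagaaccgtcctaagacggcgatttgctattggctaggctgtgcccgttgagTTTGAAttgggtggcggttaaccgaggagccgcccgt
Kif11, chr19:37376132-37376431, plus strand: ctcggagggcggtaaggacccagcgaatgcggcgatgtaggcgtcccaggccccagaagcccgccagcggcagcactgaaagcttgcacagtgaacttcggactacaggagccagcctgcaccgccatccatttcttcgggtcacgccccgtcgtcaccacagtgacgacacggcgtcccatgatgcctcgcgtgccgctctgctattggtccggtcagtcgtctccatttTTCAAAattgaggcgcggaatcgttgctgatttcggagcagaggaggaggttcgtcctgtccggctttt
The match began at position 14 of the transcript in Cdca8 and at −19 in Kif11. Of the 22 genes, 19 had a promoter in the table, and 16 of these (84.2%) held the core, against 20.2% of all genes. The core was in 2 of the 12 pigment gene promoters (16.7%).

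**Figure D2:**
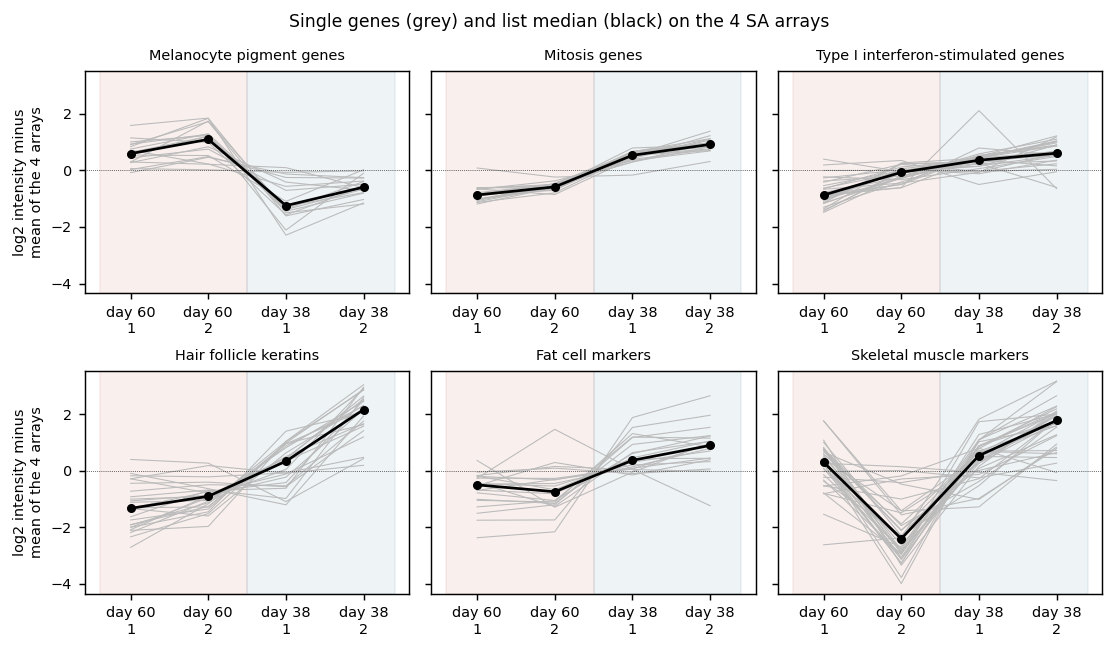
Log2 intensity of each gene minus its mean over the 4 SA arrays (vertical axis), for the members of 6 lists (grey lines) and their median (black), on the 2 day 60 arrays (left, red shading) and the 2 day 38 arrays (right, blue shading). The mitosis genes lie low on both day 60 arrays, the pigment genes high, and the muscle genes low on only 1 day 60 array.

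Type I interferon-stimulated genes had lower levels at day 60, with none called by limma and 6 of 28 at an unadjusted p under 0.05, where 26.1% of everything tested was. Of the 28 measured, 26 had negative differences, the median was −1.03, and 14 were separated, where 4.83% of everything tested was separated below. Oas1g, an antiviral enzyme gene that senses double-stranded RNA, read 8.76 and 9.65 at day 60, against 10.55 and 11.28 at day 38 (−1.71, adjusted p = 0.188). Isg15, a ubiquitin-like modifier, read 8.93 and 9.67 at day 60, against 10.39 and 10.82 at day 38 (−1.31, adjusted p = 0.213). Ifi27l2a read 12.80 and 13.06 at day 60, against 14.12 and 14.72 at day 38 (−1.49, adjusted p = 0.147). These 3 genes were lower in both day 60 tumours without overlap. Ddx58, the RNA sensor RIG-I, had the smallest p of the list at −0.57 (adjusted p = 0.122). Zbp1, a sensor of Z-form nucleic acid, ran the other way at 0.54 (adjusted p = 0.22). The mean level of the list was 9.48 and 10.14 at day 60, against 10.60 and 10.84 at day 38. On the other arrays it was 11.72 and 10.07 at SA day 20 and 9.96 and 9.64 in WT, so the WT arrays lay between the day 60 arrays. The median ran from −1.52 without SA_day60 replicate 2 to −0.55 without SA_day60 replicate 1.

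Receptors and signalling factors of the interferon pathway were mostly level. The Ifnar1 probe lay below the filter, at 5.03 and 5.72 at day 60, against 4.72 and 5.61 at day 38. Ifnar2, the partner chain, read 9.35 and 9.35 at day 60, against 9.02 and 8.75 at day 38 (0.46, adjusted p = 0.214). Of 19 receptor and signalling genes measured, with a median of −0.18 (−0.26 to 0.01 when 1 array was left out), Stat3 was the only call. Stat3, a transcription factor that interleukin-6 family cytokines activate most, read 14.08 and 13.97 at day 60, against 12.92 and 12.64 at day 38 (1.24, adjusted p = 0.042). Its feedback inhibitor Socs3 read 13.10 and 12.44 at day 60, against 11.43 and 11.27 at day 38 (1.41, adjusted p = 0.0686). Il11, a cytokine of that family, read 8.63 and 8.42 at day 60, against 7.32 and 7.54 at day 38, and rose by 1.10 (adjusted p = 0.0447). These 3 genes were higher in both day 60 tumours than in all 6 others. Further Stat3 probes differed by 1.34 and 0.41. Stat2, which forms the type I interferon transcription complex, differed by −0.72 (adjusted p = 0.362).

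The Isg15 promoter is shown because it carries several copies of the interferon-stimulated response element (ISRE), the site of that complex. The searched core was GAAA, any 2 bases and GAAA again, on either strand.
Isg15, chr4:156200769-156201068, minus strand: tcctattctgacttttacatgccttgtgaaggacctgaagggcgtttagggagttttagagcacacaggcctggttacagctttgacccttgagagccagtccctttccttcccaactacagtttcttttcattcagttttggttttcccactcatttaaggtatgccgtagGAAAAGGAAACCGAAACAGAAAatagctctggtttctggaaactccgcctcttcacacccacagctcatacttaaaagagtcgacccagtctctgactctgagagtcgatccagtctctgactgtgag
Matches began at −78, −72 and −66 and overlap one another. Of 28 interferon-stimulated genes, 19 had a promoter in the table and 10 of these (52.6%) held the core, against 3.99% of all genes and 0 of the 12 pigment gene promoters.

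Antigen presentation and interferon gamma targets were also lower without a call. Of 13 guanylate-binding proteins and other interferon gamma targets, 6 were separated below, where 4.83% of everything tested was. An unadjusted p under 0.05 was found for 5, where 26.1% of everything tested had one. The median was −0.88. It was −1.48 without SA_day60 replicate 2 and −0.38 without SA_day60 replicate 1. Gbp3, a GTPase that attacks intracellular microbes, read 10.26 and 11.24 at day 60, against 12.69 and 12.52 at day 38 (−1.86, adjusted p = 0.0727). Cxcl9, which draws in T cells, read 8.38 and 9.84 at day 60, against 11.76 and 10.76 at day 38 (−2.15, adjusted p = 0.0895). Of 10 genes of MHC class II presentation, 6 were separated and 6 had an unadjusted p under 0.05, against the same 4.83% and 26.1%, with a median of −1.09. That median was −0.62 without SA_day60 replicate 1 and −1.52 without SA_day60 replicate 2. Cd74, the invariant chain of class II molecules, read 13.02 and 13.92 at day 60, against 15.34 and 14.88 at day 38 (−1.64, adjusted p = 0.0579). H2-Aa had a larger difference of −2.80 with far less agreement, at 7.54 and 8.08 at day 60, against 8.85 and 12.36 at day 38 (adjusted p = 0.358). Class I genes differed by less. Over 21 of them the median was −0.36, and 3 were separated, against 4.83% of everything tested. An unadjusted p under 0.05 was found for 3, a smaller share than the 26.1% of everything tested. B2m, the light chain of class I molecules, read 15.51 and 15.94 at day 60, against 16.09 and 16.09 at day 38 (−0.36, adjusted p = 0.284). The class I median was −0.61 without SA_day60 replicate 2 and −0.08 without SA_day60 replicate 1. Markers of immune cells are given next, and their part in the interferon and presentation genes was not tested.

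Retnla had the largest called fall. It encodes a secreted product of alternatively activated macrophages that fat tissue also makes. Retnla read 7.91 and 8.38 at day 60, against 14.38 and 15.22 at day 38, and fell by 6.65 (SE 0.80, adjusted p = 0.042). The other 4 arrays read 12.07 to 14.73, so only the day 60 tumours were low. Fcrls, an Fc receptor-like gene of resident macrophages, read 8.07 and 9.07 at day 60, against 12.55 and 11.16 at day 38 (−3.29, adjusted p = 0.0447). Clec4d, a myeloid receptor for fungal and mycobacterial glycolipids, read 10.54 and 9.96 at day 60, against 7.64 and 7.96 at day 38, and rose by 2.45 (adjusted p = 0.0343). For Clec4d it was the day 38 arrays that stood apart, since the day 20 and WT arrays read 9.46 to 9.66. Of 22 macrophage and monocyte markers, Retnla and Clec4d were the 2 calls, in opposite directions, and the median was −0.43, with −0.18 without SA_day60 replicate 2. Over everything tested, 0.377% was called lower and 0.712% higher. Of the 22, 5 were separated below and 2 above, against 4.83% and 4.62% of everything tested. An unadjusted p under 0.05 was found for 6, a share near the 26.1% of everything tested. The general markers Adgre1, at −1.31 (adjusted p = 0.149), and Lyz2, at −1.03 (adjusted p = 0.0579), were lower, and Chil3, another product of alternative activation, was higher at 2.41 (adjusted p = 0.0738), without passing.

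Cd1d1, whose product shows lipid antigens to natural killer T cells, had the smallest p among named autosomal genes. It read 9.66 and 9.61 at day 60, against 12.07 and 12.31 at day 38, and fell by 2.56 (SE 0.18, adjusted p = 0.0175). The day 20 arrays read 10.70 and 10.49 and the WT arrays 9.50 and 9.85. Cd1d1 was 1 of 6 genes measured of that pathway, and the other 5 had differences from −0.65 (Il15) to 0.40 (Gm2a). Cd209a, a lectin of dendritic cells, read 6.69 on both day 60 arrays, against 8.40 and 8.21 at day 38, and fell by 1.61 (adjusted p = 0.0392). It was the only call among 11 dendritic and Langerhans cell markers, whose median was −0.24. Itm2a, a membrane protein gene of developing T cells and muscle, read 9.78 and 9.71 at day 60, against 13.36 and 12.34 at day 38 (−3.10, adjusted p = 0.042). Lymphocyte lists held no call by limma, and 1 gene in each had an unadjusted p under 0.05, where 26.1% of everything tested did. These were Thy1 at 0.76 (T cell list, adjusted p = 0.121), Prf1 at 1.11 (cytotoxic list, adjusted p = 0.183) and Cd79b at −1.61 (B cell list, adjusted p = 0.11). Thy1 and Prf1 thus lay higher at day 60, against the sign of their lists' medians. The list medians were −0.20 over 15 T cell markers, −0.65 over 6 cytotoxic markers and −1.08 over 4 B cell markers past the filter. Over all members on the array they were −0.20 (17 genes), −0.06 (16 genes) and −0.09 (12 genes). Each median past the filter depended on single arrays. Without SA_day38 replicate 1 the T cell median was 0.02 and the B cell median 0.16, and without SA_day60 replicate 1 the cytotoxic median was −0.16. Neutrophil markers (median 0.01 over 13), mast cell markers (0.29 over 7) and complement genes (−0.49 over 12) also held no call. Of these lists 3, 2 and 4 genes had an unadjusted p under 0.05, where 26.1% of everything tested did. The 2 mast cell genes, Cpa3 at −1.08 (adjusted p = 0.0899) and Mcpt4 at −0.63 (adjusted p = 0.15), lay lower, against the sign of the median. In that list 4 differences were positive and 3 negative. The neutrophil median was −0.51 without SA_day60 replicate 1, the complement median −0.80 without the same array, and the mast cell median 1.22 without SA_day38 replicate 1 and −0.63 without SA_day38 replicate 2.

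**Figure D3:**
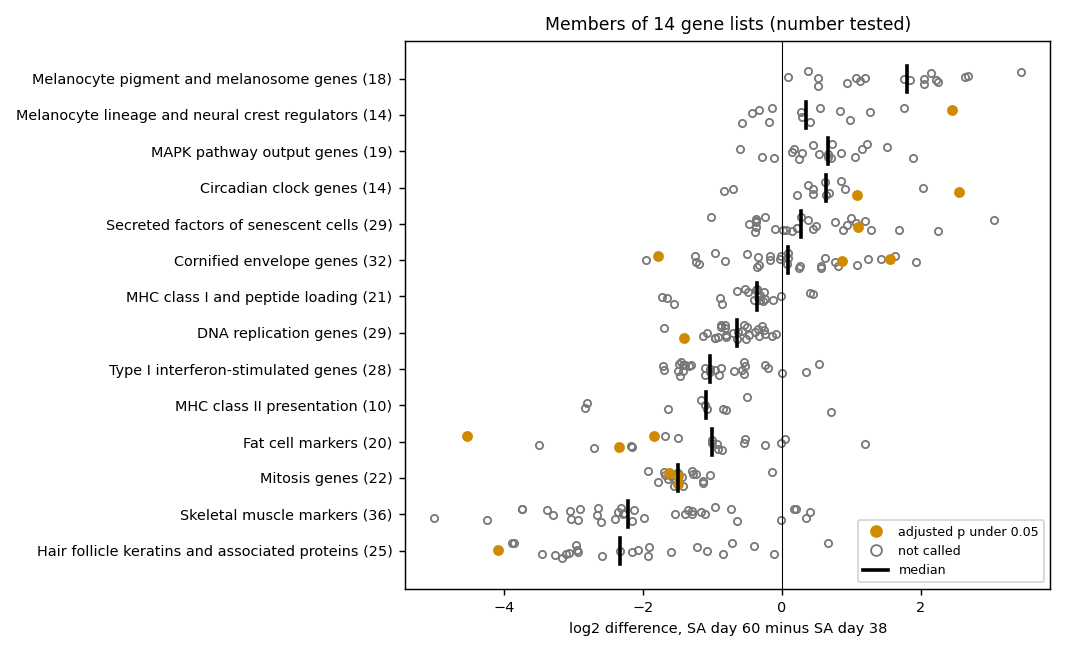
Log2 difference, day 60 minus day 38 (horizontal axis), of each measured gene in 14 lists (number of genes in brackets), with called genes filled and list medians as black bars. Pigment genes lie furthest to the right with a median of 1.8, and hair follicle and muscle genes to the left at −2.33 and −2.21 over the genes past the filter.

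Fat cell genes were lower at day 60, and 3 of them passed the test. Lep, the fat hormone leptin, read 8.79 and 9.0 at day 60, against 13.04 and 13.81 at day 38, and fell by 4.53 (adjusted p = 0.042). Lpl, the lipase that frees fatty acids from blood lipoproteins, read 13.40 and 13.62 at day 60, against 15.87 and 15.83 at day 38 (−2.34, adjusted p = 0.042). Arxes2, a gene of fat cell formation, read 9.41 and 9.14 at day 60, against 10.80 and 11.42 at day 38 (−1.84, adjusted p = 0.042). These were the 3 calls among 20 fat cell markers, against a background of 0.377% called lower. In the list 18 had negative differences, 11 were separated, where 4.83% of everything tested was separated below, and the median was −1.01. Adipoq, the fat hormone adiponectin, differed by −2.17 without overlap (adjusted p = 0.116), and Pparg, the regulator of fat cell formation, differed by only −0.24 (adjusted p = 0.67). The mean level of the list was 10.41 and 10.43 at day 60 and 11.64 and 11.93 at day 38, with the WT arrays lower still at 9.35 and 9.77.

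Pdk4 and Angptl4 were among the other large called falls. Pdk4, which blocks the entry of pyruvate into the citric acid cycle, read 11.05 and 9.72 at day 60, against 13.86 and 13.37 at day 38 (−3.23, adjusted p = 0.0445). Angptl4, a secreted inhibitor of Lpl, read 10.54 and 10.86 at day 60, against 13.94 and 12.71 at day 38 (−2.63, adjusted p = 0.0447). Apoc4, an apolipoprotein gene, rose instead, at 9.41 and 9.57 at day 60, against 6.91 and 6.84 at day 38 (2.61, adjusted p = 0.0447). Further called rises were picked after their values were seen. Abcg1, which exports cholesterol to high-density lipoprotein, rose by 1.48 (adjusted p = 0.0457), Nceh1, which frees cholesterol from its esters, by 1.56 (adjusted p = 0.042), Stard4, which carries it between membranes, by 1.40 (adjusted p = 0.042) and Nr1h4, the bile acid receptor gene, by 1.71 (adjusted p = 0.0444). The fixed list of lipid synthesis and sebaceous gland genes held no call, with a median of 0.26 over 23 genes (0.45 without SA_day60 replicate 1 and −0.08 without SA_day60 replicate 2), 4 of them at an unadjusted p under 0.05.

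Hair follicle genes were lower at day 60, with a median of −2.33 over the 25 genes past the filter and −1.92 over all 32 on the array. Of the 25, 24 were negative and 18 were separated, where 4.83% of everything tested was separated below. The median was −3.52 without SA_day38 replicate 1 and −1.52 without SA_day38 replicate 2. Krt26, a keratin of the inner root sheath, was the 1 call, against a background of 0.377% called lower. It read 7.40 and 7.54 at day 60, against 10.55 and 12.55 at day 38 (−4.08, adjusted p = 0.0457). Krtap1-5, a hair keratin-associated protein outside the list, fell by 4.76, at 7.18 and 7.91 at day 60, against 11.75 and 12.86 at day 38 (adjusted p = 0.0447). Krt27, another inner root sheath keratin, read 10.40 and 11.94 at day 60, against 14.14 and 15.96 at day 38 (−3.88, adjusted p = 0.0552). The day 60 arrays were the lowest of the 8, with list means of 8.64 and 9.03 against 10.11 and 11.96 at day 38, and 10.28 to 11.48 elsewhere. 

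Epidermal genes were divided. Of 27 keratinocyte markers none was called, 9 had an unadjusted p under 0.05 and the median was 0.19, and Krt14, the keratin of basal cells, read 16.07 and 16.11 at day 60 and 16.12 and 16.08 at day 38. Of 32 cornified envelope genes, which build the outer skin barrier, 2 were called higher and 1 lower, against 0.712% and 0.377% of everything tested. Their median was 0.08 (0.27 without SA_day60 replicate 2). Separated above were 6 and below 5, against 4.62% and 4.83% of everything tested. An unadjusted p under 0.05 was found for 14, where 26.1% of everything tested had one. The called risers were late cornified envelope genes. Lce1l read 12.35 and 12.10 at day 60, against 10.72 and 10.61 at day 38 (1.56, adjusted p = 0.0447), and Lce1b read 14.92 and 15.01 at day 60, against 14.10 and 14.11 at day 38 (0.86, adjusted p = 0.046). The Lce1 genes are near-identical neighbours whose probes may share signal. Sprr1a, a small proline-rich envelope protein of stressed epidermis, read 10.26 and 10.60 at day 60, against 12.06 and 12.39 at day 38, and fell by 1.79 (adjusted p = 0.042). Involucrin (Ivl) also lay lower, at −1.24 (adjusted p = 0.0686).

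Skeletal muscle genes showed the widest gap between 2 arrays of a group. The 36 markers had a median of −2.21 with 18 separated, where 4.83% of everything tested was separated below. None was called by limma and 15 had an unadjusted p under 0.05, where 26.1% of everything tested did. Their mean level was 11.83 on SA_day60 replicate 1 and 9.49 on SA_day60 replicate 2, against 12.07 and 13.23 at day 38. Without SA_day60 replicate 2 the median was −0.76, and without SA_day60 replicate 1 it was −3.66. Ckm, the muscle creatine kinase, read 12.42 and 8.18 at day 60, against 13.26 and 14.82 at day 38 (−3.74, adjusted p = 0.138). Actn3, an actinin of fast fibres, was low on both day 60 arrays at 8.80 and 9.05, against 13.24 and 14.59 at day 38 (−5.00, adjusted p = 0.0869). Red blood cell genes split the day 60 pair in the same way, with Hba-a1, an alpha globin, at 15.61 and 12.51 at day 60, against 15.59 and 15.31 at day 38 (−1.39, adjusted p = 0.38). The 7 red blood cell genes had a median of −0.93 with no call and 0 at an unadjusted p under 0.05. That median was −2.12 without SA_day60 replicate 1 and 0.17 without SA_day60 replicate 2.

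**Figure D4:**
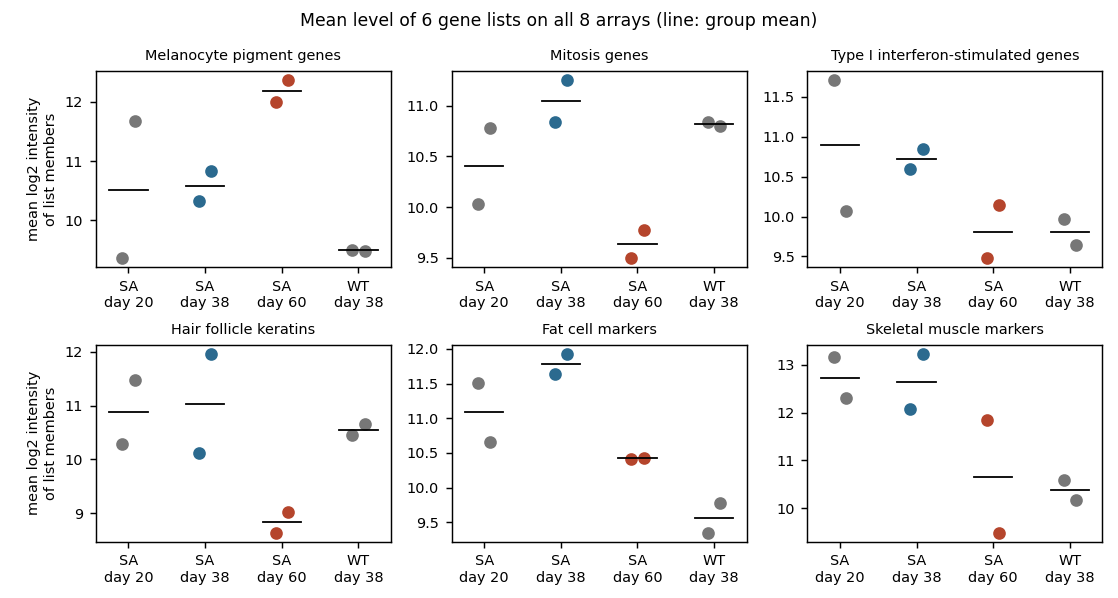
Mean log2 intensity of the measured members of 6 lists (vertical axis) on each of the 8 arrays, with group means as lines, for SA at days 20, 38 and 60 and for WT at day 38. Both SA day 60 arrays are the highest of the 8 for pigment genes and the lowest for mitosis and hair follicle genes, while the day 60 pair reads 11.83 and 9.49 for muscle genes.

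Stromal and vascular lists held no call by limma. The median was −0.48 over 27 fibroblast and matrix genes, −0.08 over 11 pericyte and smooth muscle genes and 0.19 over 21 endothelial genes, with 9, 4 and 5 genes at an unadjusted p under 0.05. Of the fibroblast genes 5 were separated below and 1 above, of the pericyte and smooth muscle genes 4 and 2, and of the endothelial genes 0 and 1. Over everything tested, 4.83% was separated below and 4.62% above. Actg2, a smooth muscle actin gene, read 8.15 and 8.72 at day 60, against 10.16 and 11.06 at day 38 (−2.17, adjusted p = 0.0885). Without SA_day38 replicate 1 the fibroblast median was −0.30, and without SA_day38 replicate 2 the endothelial median was 0.03. Fap, a protease of activated fibroblasts, had the smallest p, at 9.26 and 8.84 at day 60, against 10.26 and 10.15 at day 38 (−1.15, adjusted p = 0.0516). Myh10, a non-muscle myosin gene of cell shape and division that no list held, fell by 1.85, at 9.06 and 8.70 at day 60, against 10.61 and 10.86 at day 38 (adjusted p = 0.0343).

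Regulators of senescence gave no uniform direction. Lmnb1, a nuclear lamina gene whose loss is a known mark of senescent cells and which dividing cells express more, was the only call among 24 regulators and p53 targets, at 9.38 and 9.88 at day 60, against 10.99 and 11.03 at day 38 (−1.38, adjusted p = 0.0447). The median of the list was 0.17. Cdkn2b, the p15 inhibitor of cyclin D kinases, read 13.77 and 13.35 at day 60, against 11.38 and 10.75 at day 38 (2.49, adjusted p = 0.0561). Its neighbour Cdkn2a, which encodes p16 and Arf, read 10.21 and 9.47 at day 60, against 8.10 and 7.18 at day 38 (2.20, adjusted p = 0.13). The day 38 arrays were lower than WT for both genes, where Cdkn2b read 12.13 and 12.44 and Cdkn2a 8.95 and 9.45. Cdkn1a (p21), the p53-driven inhibitor, differed by 0.23 (adjusted p = 0.423).

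Secreted factors known from senescent cells leaned higher than at day 38. Of 29 measured, 20 had positive differences with a median of 0.27 (0.42 without SA_day38 replicate 1), and Il11 was the only call. Separated above were 7 and below 1, against 4.62% and 4.83% of everything tested. An unadjusted p under 0.05 was found for 7, where 26.1% of everything tested had one. Their mean level was 10.57 and 10.65 at day 60 and 10.24 and 10.04 at day 38. The day 20 and WT arrays lay at 10.56 to 10.70, near the day 60 level. Timp1, an inhibitor of matrix proteases, read 15.72 and 14.54 at day 60, against 12.46 and 11.70 at day 38 (3.05, adjusted p = 0.0708). Cxcl2, which attracts neutrophils, read 8.67 and 10.43 at day 60, against 7.31 and 7.32 at day 38 (2.24, adjusted p = 0.0722). Plaur, the urokinase receptor, differed by 1.28 (adjusted p = 0.0707), and Ccl8, a chemokine for monocytes, was lower at −1.02 (adjusted p = 0.0726). Matrix metalloproteinases and their inhibitors had a median of 0.40 over 15 genes with no call and 4 at an unadjusted p under 0.05.

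Output genes of the MAPK pathway, the pathway that oncogenic Braf feeds, had 16 of 19 differences above 0 with a median of 0.66. Of the 19, 5 were separated, where 4.62% of everything tested was separated above. Limma called none, and 5 had an unadjusted p under 0.05, a share near the 26.1% of everything tested. Ier3, an immediate early survival gene, read 14.97 and 14.92 at day 60, against 13.39 and 12.73 at day 38 (1.88, adjusted p = 0.0688). Dusp4, a phosphatase that shuts ERK off in the nucleus, read 10.71 and 11.34 at day 60, against 9.74 and 9.29 at day 38 (1.51, adjusted p = 0.246). Dusp3, a related phosphatase outside the list, was called. It read 10.21 and 9.86 at day 60, against 7.98 and 8.08 at day 38, and rose by 2.01 (adjusted p = 0.0447). One of its 2 further probes differed by 1.84 and the other, a dim one, by 0.16. Immediate early and heat shock genes, which respond to tissue handling, had a median of −0.15 over 22 genes (0.17 without SA_day60 replicate 2) with no call and 5 at an unadjusted p under 0.05.

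Of the clock genes, 2 repressors that the factor Bmal1 drives rose. Nr1d1, the nuclear receptor Rev-erb alpha that represses Bmal1, read 11.15 and 10.54 at day 60, against 8.19 and 8.40 at day 38, and rose by 2.55 (adjusted p = 0.0343). A second Nr1d1 probe differed by 2.87. Ciart, another circadian repressor, read 10.01 and 9.86 at day 60, against 8.80 and 8.92 at day 38 (1.08, adjusted p = 0.0468). These were the 2 calls among 14 clock genes, against a background of 0.712% called higher, whose median was 0.63. Dbp, a clock output gene, lay higher at 2.03 (adjusted p = 0.0908) and Arntl, which encodes Bmal1, lower at −0.71 (adjusted p = 0.0895). For Nr1d1 and Ciart the day 38 tumours stood apart from all 6 others, with Nr1d1 at 9.62 to 10.60 on the day 20 and WT arrays.

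Several of the largest rises belong to none of these groups. Tmem179, a transmembrane protein gene, read 10.61 and 9.60 at day 60, against 6.09 and 6.57 at day 38, a difference of 3.78. Azgp1, a secreted lipid-mobilising glycoprotein, read 9.26 and 10.19 at day 60, against 6.97 and 7.04 at day 38, a difference of 2.72, and a second, dimmer probe differed by 0.61. Both passed the filter only through the day 60 arrays, so no test is given. Both were near the background at day 38 and on most other arrays, where this scale compresses differences. Cygb, an oxygen-binding globin found in many tissues, read 14.41 and 14.04 at day 60, against 12.44 and 12.27 at day 38 (1.87, adjusted p = 0.042). Pla2g7, an enzyme that degrades platelet-activating factor, rose by 1.87 (adjusted p = 0.0436), Slc5a3, a myo-inositol transporter, by 1.79 (adjusted p = 0.0439) and Cpd, a carboxypeptidase of the Golgi, by 1.77 (adjusted p = 0.0343). A second Cpd probe differed by 1.81. The groups did not overlap in these genes, which held for all 127 calls and for 57.9% of everything tested. Wfdc3, a gene of the whey acidic protein family, rose by 1.89 (adjusted p = 0.042), and 6430548M08Rik rose by 1.75 (adjusted p = 0.042). The unnamed probe ILMN_2899599 read 13.36 and 13.61 at day 60, against 8.98 and 8.51 at day 38 (4.74, adjusted p = 0.00784), and followed the pattern of the Y-linked genes on the other arrays (12.59 to 13.25).

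Among the smaller rises, picked after their values were seen, were the neighbouring homeobox genes Irx3 and Irx5. Irx5 read 11.87 and 11.83 at day 60, against 10.26 and 10.27 at day 38 (1.58, adjusted p = 0.0343), and Irx3 read 13.23 and 12.97 at day 60, against 11.49 and 11.84 at day 38 (1.44, adjusted p = 0.042). Fst, which encodes the activin antagonist follistatin, read 11.44 and 11.69 at day 60, against 10.11 and 9.61 at day 38 (1.71, adjusted p = 0.042). Slc6a6, the taurine transporter, read 15.24 and 14.96 at day 60, against 13.71 and 13.68 at day 38 (1.40, adjusted p = 0.042). In these 4 genes both day 60 arrays lay more than 1 log2 unit above both day 38 arrays. The kinase genes Pdpk1 and Gsk3b, which act in insulin and Wnt signalling, rose by 1.35 (adjusted p = 0.042) and 0.99 (adjusted p = 0.0447), and Kdm6b, a histone demethylase, by 0.98 (adjusted p = 0.0447). In each of these 7 genes both day 60 arrays lay above the other 6. Further probes of Pdpk1 and Kdm6b differed by 1.16 and 0.31.

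General metabolism and stress lists stayed near the median of everything tested. The medians were −0.09 over 41 genes of oxidative phosphorylation and the citric acid cycle, −0.15 over 26 hypoxia and glycolysis genes and −0.15 over 25 genes of the unfolded protein and integrated stress responses, with no call in any of them and 3, 7 and 9 genes at an unadjusted p under 0.05. Of the hypoxia and glycolysis genes, Pdk1 and Adm had the smallest p. Both lay higher, at 0.67 (adjusted p = 0.0837) and 0.98 (adjusted p = 0.0713), in a list with 11 positive and 15 negative differences. Cartilage markers had a median of 0.51 over 9 genes, also without a call, with 2 at an unadjusted p under 0.05. Of the called genes, 27 had further probes past the filter. Of those 39 probes, 36 had the sign of the probe used. Sizes could differ, as for Kdm6b at 0.31 against 0.98 for the probe used.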

How the data were processed

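RNA from whole tumours was labelled with biotin and measured on Illumina bead arrays, 1 sample per array, per the labels' protocols. The deposited value table holds intensities on a linear scale, whose sorted values are nearly the same on all arrays (medians 409.3 to 410.0). From this they were read as quantile normalized by the authors without background subtraction. The submitters' processing notes name GenomeStudio 1.8. The number of arrays limits the precision. A second table of unnormalized signals was not used, since no label ties its 16 columns to samples.

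The intensities were background corrected with limma's normexp (offset 16, saddle-point method) and then log2 transformed, which compresses changes near the background. Probes with a mean above the 40th percentile (7.24) were kept. The brightest probe stood for each symbol and unnamed probes for themselves, which left 11661 measurements. Symbols came from the platform annotation (23978 of 25697 probes with 1 symbol, 0 with several, 1719 with none). Group means over the 8 arrays were estimated with lmFit and eBayes of limma 3.58.1 (R 4.3.3), with 4 residual and 2.49 prior degrees of freedom. Calls required p under 0.05 after Benjamini-Hochberg adjustment over all measurements, and the steps were tested on simulated data.

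Genes were picked by rule: Ifnar1 and Ifnar2, the sex-linked genes, the 15 largest called rises and falls, and per list up to 4 called members or the 2 with the smallest p. The text does not give every gene that this rule picked, so for some lists only the median and counts are given. The 41 lists, their members and the rule were chosen with earlier results of these data known. List genes that are not mentioned as measured were not analysed here. The labels' genotype field (Ifnar1SA) was followed where their treatment text names Ifnar1-/-. One item of the mouse model is not reported here. Alternatives covered background setting, filter, probe rule, normalization, variance model, the replicate number as a block, the sex chromosomes and leaving out each array.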

Additional observations from a re-analysis of the deposited data

How the results depend on the processing

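The 127 calls became 365 without background correction and 332 with a filter at the 60th percentile, which held all 127 and all of the 102 that passed that filter. They became 3 with all probes tested (Cd1d1, Eif2s3y and ILMN_2899599) and 44 in a fit on the 4 compared arrays alone, of which 8 were among the 127 and 36.4% were rises, against 65.4%. Leaving out 1 array gave 1 to 930 calls. The count was 930 without either day 20 array, where 54.7% were rises and every log2 difference stayed as it was. An offset of 50 gave 168 calls, array weights 142, a trended robust variance prior 184, the mean of a gene's probes 112 and a second quantile normalization 127. Unadjusted p-values under 0.05 numbered 3047.

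The replicate numbers are shared by the groups. The deviations of same-numbered arrays correlated at −0.196 between SA day 38 and SA day 60. In the other pairs of groups the correlations were −0.186 to 0.107. With 2 arrays per group, each pair of groups gives a single such value, which cannot exclude a link between same-numbered samples. With the replicate number as a block, limma made 1 call (Eif2s3y).

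Signs turned when 1 array was left out for 5 genes that were not called. Foxm1 ran from −0.38 to 0.09, with 0.01 without SA_day60 replicate 2. Hba-a1 ran from −2.94 to 0.16, Kdm5c from −0.14 to 0.33 with −0.06 without SA_day38 replicate 2, and Krt14 from −0.03 to 0.01. Pparg ran from −0.65 to 0.18, with 0.04 without SA_day38 replicate 2. None of the other named genes changed sign under any alternative in which it was measured. List medians moved by more than the spread between replicates in 83 combinations of list and alternative and stayed within it in 694.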
